A study of Rattus norvegicus with 8 samples.

Results

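Arginine is the shared substrate of the arginases and the nitric oxide synthases, and the 9 genes examined here, Arg1, Arg2, Nos2, Ass1, Odc1, Sat1, Amd1, Oaz1 and Gch1, encode enzymes and regulators that make, spend or follow on from it. They were taken by gene symbol: every probe set (the group of probes that reads a transcript on an Affymetrix array) annotated with exactly 1 of these symbols was used. This gave 8 probe sets, 1 for each of 8 genes, among 20214 probe sets in the table. Nos2, the inducible nitric oxide synthase, was not analysed here. All 8 probe sets were among the 16896 tested after a filter that asked for log2 values of at least 5 on no fewer than 2 of the 8 arrays. Arg2 met that filter only through 3 ventilated arrays, so its presence in the test depended on the groups in which it was higher.

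Arginase, encoded by Arg1 in the cytosol and Arg2 in mitochondria, splits arginine into ornithine and urea, whereas nitric oxide synthases turn it into nitric oxide and citrulline. Argininosuccinate synthase (Ass1) starts the recycling of citrulline to arginine, and GTP cyclohydrolase (Gch1) starts the synthesis of tetrahydrobiopterin, the cofactor without which the synthases make no nitric oxide. Ornithine feeds the polyamines: ornithine decarboxylase (Odc1) makes putrescine, S-adenosylmethionine decarboxylase (Amd1) supplies the aminopropyl groups that extend it to spermidine and spermine, spermidine/spermine acetyltransferase (Sat1) marks these for breakdown or export, and antizyme (Oaz1) binds ornithine decarboxylase and sends it for degradation. In lung, nitric oxide from the endothelium relaxes vessels, the inducible enzyme and Gch1 are classical cytokine-responsive genes, and arginase is found in activated macrophages.

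The samples were RNA of the dorsal-caudal quadrant of the lung from male Sprague-Dawley rats of 340 to 400 g. Rats were not ventilated (2 arrays), ventilated prone (3 arrays) or ventilated supine (3 arrays). Both ventilated groups received a tidal volume of 18 ml per kg at 40 breaths per minute with an end-expiratory pressure of 0 cmH2O for up to 3 hours, under anaesthesia and after tracheotomy and cannulation of the jugular vein. The titles call each array a biological replicate. The labels used here do not settle whether the non-ventilated rats were also anaesthetised and operated on, how long each rat was ventilated, or whether RNA of several rats was pooled. Supine is written SVt and prone HVt in the titles, while the condition label gives high Vt for both.

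The values are log2 summaries normalised by the authors, so a difference of 1 is a doubling, and they carry no detection call. Array medians lay between 7.77 and 7.95. In supine replicate 3 the 3′ probe set of beta-actin exceeded the 5′ one by 9.10 log2 units against 3.16 to 4.64 on the other arrays, a gap that is the usual sign of degraded RNA. Lung markers were present on every array: 8 of 8 listed alveolar type 2 genes and 6 of 7 alveolar type 1 genes had a tested probe set; 8 of 8 and 5 of 6 were lower in ventilated lung, none past the threshold used below. Listed lymphocyte genes were lower in 6 of 6 cases as well, with a summed level of 10.95 to 12.24 in non-ventilated, 7.48 to 10.30 in prone and 9.49 to 11.38 in supine lungs. Whole tissue was measured, so fewer cells of a type and less RNA per cell cannot be told apart. No level of a probe set is compared with that of another below, since probe sets differ in how brightly they bind.

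Against non-ventilated lung, the means of Gch1, Odc1 and Sat1 were higher and that of Ass1 lower in both ventilated groups. Arg2, at the low end of the scale, also had higher means in both. The means of Oaz1 differed little, while Amd1 spread to either side of the non-ventilated values. Arg1 was lower only on prone replicates 2 and 3 and supine replicate 2. None of these differences passed the test over all probe sets. In prone against non-ventilated lung 0 of 8 member probe sets passed a Benjamini-Hochberg adjusted p under 0.05 by limma, against 0.0533% of all tested probe sets. In supine against non-ventilated lung 0 of 8 passed as well, again against 0.0533%. With both ventilated groups averaged the count was 0 of 8 against 0.142%, and in supine against prone lung it was 0 of 8 against 0%. At an unadjusted p under 0.05 the counts were 0 of 8 in prone, 1 of 8 in supine, 1 of 8 in all ventilated lungs and 0 of 8 between the positions, against 17.7%, 15.2%, 19.2% and 4.09% of all tested probe sets. The single member behind both counts of 1 was Odc1. These shares are close to or below those of the array as a whole. With the replicate number of the titles as a block, the number of all probe sets past the threshold went from 9 to 0 in prone, from 9 to 0 in supine and from 24 to 0 in all ventilated lungs, and the member counts stayed at 0.

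**Figure D1:**
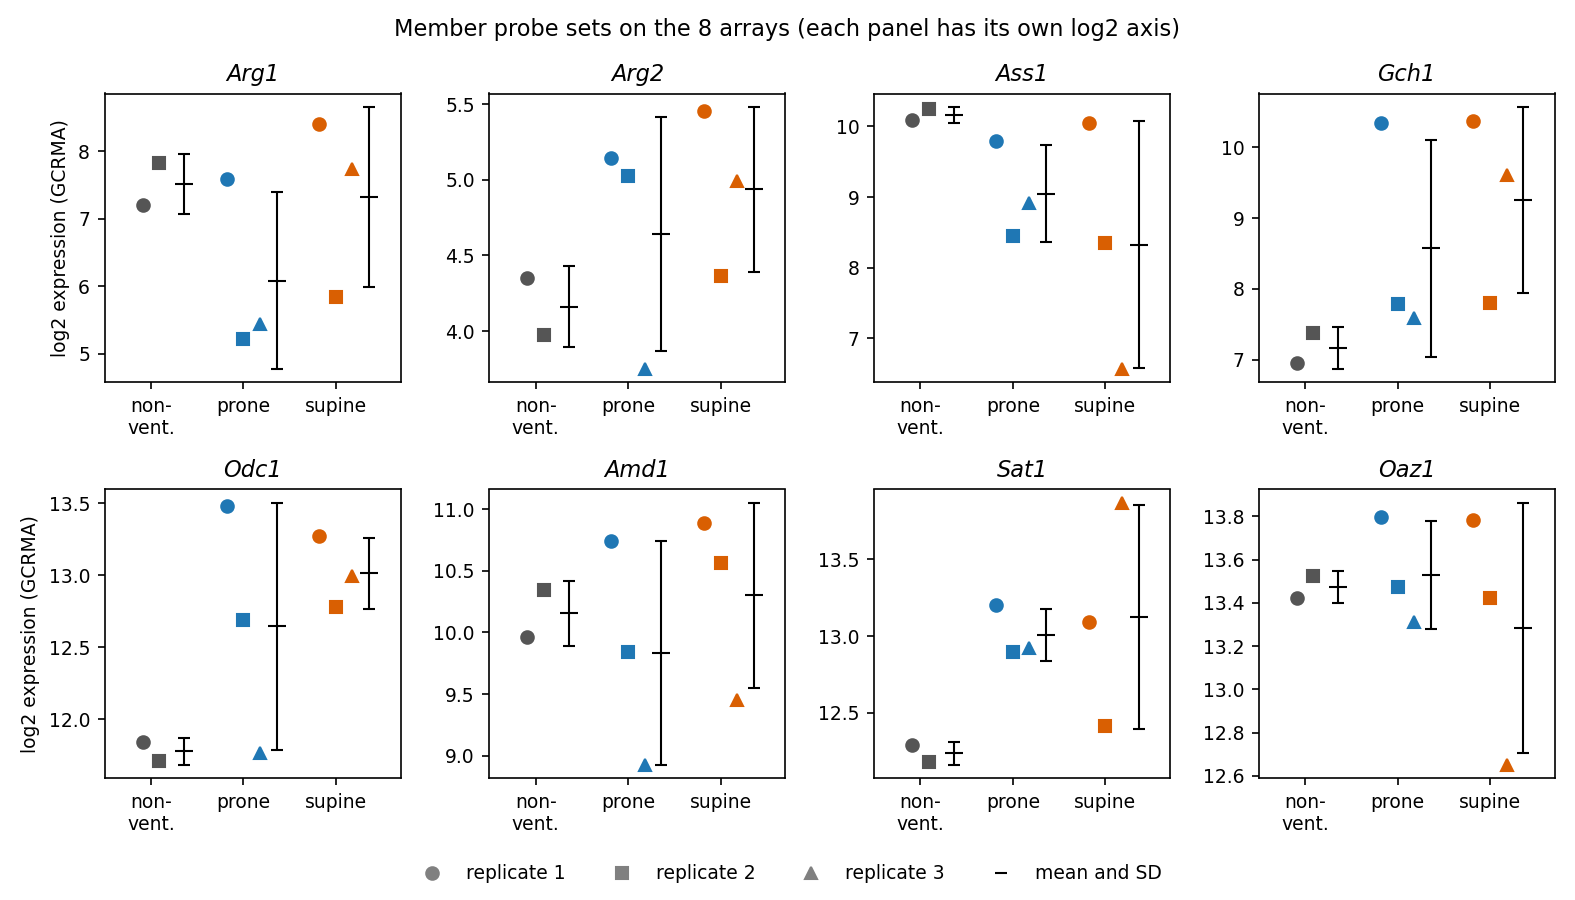
Log2 expression of the 8 member probe sets (y axis, a separate scale in each panel) on each array of the non-ventilated, prone and supine groups (x axis), with the mean and SD of each group as black bars and replicate numbers as marker shapes. Gch1 reads above 10 on the first prone and first supine arrays only, and Sat1 is above both non-ventilated arrays on all 6 ventilated arrays.

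Groups that do not overlap were the other measure. All 6 ventilated arrays lay above both non-ventilated arrays for 2 of the 8 members, Gch1 and Sat1, which 12.9% of all tested probe sets did. All 6 lay below for 1 member, Ass1, against 16.7% of all. For the supine arrays alone 3 members were higher without overlap (Odc1, Sat1 and Gch1; 20% of all) and 1 was lower (Ass1; 21.8% of all). Arg2 also read higher on each supine array, but it is left out of this count because it met the filter only through ventilated arrays. For the prone arrays alone the counts were 2 higher (Sat1 and Gch1; 20.9% of all) and 1 lower (Ass1; 27.7% of all). None of the 8 members separated supine from prone lungs, where 3.78% of all probe sets were higher and 2.11% lower without overlap. The prone and the supine comparison share the same 2 non-ventilated arrays. With groups of 2 and 3 arrays, separation of this kind was common over the whole array, and the members' counts are to be read against it.

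The arginases came first in the pathway. Arg1 (probe set 1368266_at) read 7.20 and 7.83 on the non-ventilated arrays, 7.59, 5.22 and 5.43 on prone replicates 1 to 3, and 8.41, 5.84 and 7.74 on supine replicates 1 to 3. Prone replicate 1 and supine replicate 3 lay inside the non-ventilated range, supine replicate 1 above it, and the other 3 ventilated arrays lay at least a full log2 unit below it. The prone mean was 6.08 ± 1.31 (SD, n = 3) against 7.51 ± 0.44 (n = 2), a difference of -1.43 ± 0.93 (SE; adjusted p = 0.468). The supine mean was 7.33 ± 1.34 (n = 3), and supine against prone lung gave 1.24 ± 0.83 (adjusted p = 0.942), with a 95% interval from -0.69 to 3.18. Without prone replicate 1 the prone difference was -2.18, and without prone replicate 2 it was -0.998.

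Arginase is a macrophage enzyme, and the macrophage list (5 of 8 genes with a probe set) is given beside Arg1. Their summed level, the log2 of the summed unlogged signals, was 12.66 to 12.90 in non-ventilated, 11.64 to 13.45 in prone and 12.36 to 13.39 in supine lungs, and it was highest on the first array of each ventilated group and lowest of the prone arrays on replicate 2. Of the 5 tested macrophage genes, 2 were higher and 3 lower in ventilated lung (median -0.225), with 0 past the threshold. Hepatocytes are another source of arginase. Their list (8 of 9 with a probe set) summed to 13.06 on supine replicate 3 and to at most 10.64 on the other 7 arrays. Of its 4 tested genes, 3 were higher and 1 lower in ventilated lung (median 1.71), with 0 past the threshold. Another 2 listed genes, Apoa1 and Cps1, stayed below log2 5 on all 8 arrays. The part of either list in the Arg1 values was not tested.

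Arg2 (1368672_at), the mitochondrial enzyme, sat at the low end of the scale. It read 4.35 and 3.98 on the non-ventilated arrays, 5.15, 5.03 and 3.75 on the prone and 5.46, 4.37 and 4.99 on the supine arrays. The 3 supine arrays were above both non-ventilated ones, supine replicate 2 by only a narrow margin, and prone replicate 3 was below both. The supine difference was 0.77 ± 0.52 (adjusted p = 0.485) and the prone difference 0.48 ± 0.52 (adjusted p = 0.663). Leaving out prone replicate 1 gave a prone value of 0.23, and leaving out prone replicate 3 gave 0.92. At this level a value cannot be separated from background, since no detection calls were used.

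Citrulline recycling was read by Ass1 (1370964_at). The non-ventilated arrays gave 10.09 and 10.25, the prone arrays 9.79, 8.44 and 8.91, and the supine arrays 10.06, 8.36 and 6.57. Every ventilated array was below both non-ventilated arrays, although the first array of each position missed the non-ventilated range by less than 0.5 log2 units. Mean levels were 10.17 ± 0.11 (n = 2), 9.05 ± 0.69 (n = 3) and 8.33 ± 1.74 (n = 3) in the 3 groups. Supine lungs differed from non-ventilated lungs by -1.84 ± 0.92 log2 units, a 3.58-fold lower level (adjusted p = 0.378), and prone lungs differed by -1.12 ± 0.92 (adjusted p = 0.564). The lowest value, 6.57, came from the array with the wide beta-actin gap; without it the supine difference was -0.96, and without supine replicate 1 it was -2.71.

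Upstream of its gene start as RefSeq places it in the GRCr8 assembly, Ass1 has the following sequence, shown because Ass1 was the 1 member lower on all ventilated arrays. It covers chr3:35149480-35149779 on the + strand, 250 bases before the start and 50 from it, and capitals mark matches to the motifs named below it:
Ass1: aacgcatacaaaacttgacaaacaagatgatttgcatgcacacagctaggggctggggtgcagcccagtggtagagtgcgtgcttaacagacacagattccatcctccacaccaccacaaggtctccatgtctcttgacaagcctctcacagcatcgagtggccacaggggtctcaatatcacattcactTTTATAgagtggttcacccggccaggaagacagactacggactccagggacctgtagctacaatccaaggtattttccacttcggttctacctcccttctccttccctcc
On both strands 8 motifs were searched: the TATA box TATAAA, the CCAAT box, the GC box GGGCGG, the E box CACGTG, the AP-1 site TGANTCA, the cAMP response element TGACGTCA, its core TGACG (which the full element contains) and the core of the antioxidant response element TGACNNNGC (which can overlap TGACG). The 1 match in Ass1 was a TATA box on the opposite strand at -60, counted from the gene start, and 14.2% of 33469 promoters of the same length hold that motif. CACGTG is in 6.42%, TGANTCA in 7.33% and TGACGTCA in 1.83% of them, and none of these 3 was matched in the 4 promoters printed here. Its GC content was 51%.

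Endothelial cells are a known site of Ass1 and of Nos3, the endothelial synthase, so the endothelial list was set beside them. Its summed level (6 of 7 genes with a probe set) was 15.46 to 15.48 in non-ventilated, 14.22 to 15.51 in prone and 14.66 to 15.37 in supine lungs, with 6 of 6 genes lower in ventilated lung (median -0.50) and 0 past the threshold. The first prone array had the lowest endothelial sum (14.22) and the highest Ass1 value of its group (9.79). The part of these cells in the Ass1 values was not tested.

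Cofactor synthesis gave the members' largest difference from non-ventilated lung. Gch1 (1387221_at) read 6.95 and 7.37 on the non-ventilated arrays, 10.34, 7.79 and 7.58 on the prone and 10.37, 7.80 and 9.61 on the supine arrays. All 6 ventilated arrays were higher than both non-ventilated ones, but prone replicate 1 and supine replicates 1 and 3 exceeded the highest non-ventilated value by over 2 log2 units and the other 3 by less than 0.5. Group means were 7.16 ± 0.30 (n = 2), 8.57 ± 1.54 (n = 3) and 9.26 ± 1.32 (n = 3). The supine difference was 2.10 ± 0.99, or 4.28-fold (adjusted p = 0.358; 95% interval -0.21 to 4.41), and the prone difference 1.41 ± 0.99, or 2.66-fold (adjusted p = 0.50). Leaving out prone replicate 1 gave a prone difference of 0.52, and leaving out supine replicate 1 gave a supine difference of 1.54, both still above 0.

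Neutrophil markers (8 of 11 with a probe set, 8 of 8 higher in ventilated lung, 0 past the threshold) had their highest sums on the same first arrays, 16.73 and 16.57. The list ranged from 13.26 to 13.52 in non-ventilated, 14.91 to 16.73 in prone and 14.85 to 16.57 in supine lungs. Supine replicate 3, with Gch1 at 9.61, had the lowest neutrophil sum of the ventilated arrays (14.85). The part of these cells in the Gch1 values was not tested.

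Gch1 is shown with its promoter because its levels reached the highest multiple of the non-ventilated ones; the sequence is chr15:22917363-22917662 on the - strand, with motif matches in capitals:
Gch1: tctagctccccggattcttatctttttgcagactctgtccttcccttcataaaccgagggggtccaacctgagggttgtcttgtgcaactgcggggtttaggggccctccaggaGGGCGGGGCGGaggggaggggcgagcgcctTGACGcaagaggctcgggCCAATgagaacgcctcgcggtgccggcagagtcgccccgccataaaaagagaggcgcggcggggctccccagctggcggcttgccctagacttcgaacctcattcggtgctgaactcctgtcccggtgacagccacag
The capitals hold a pair of GC boxes (GGGCGG) that share a base, at -136 and -131, the cAMP response core TGACG at -106 and a CCAAT box at -88. GC boxes are in 33.1%, TGACG in 21.2% and CCAAT in 37.5% of all promoters of this length.

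Genes whose levels followed Gch1 most closely over the 8 arrays were Spred3, an inhibitor of growth factor signalling to ERK (Pearson r = 0.997), Cyp7b1, an oxysterol hydroxylase (r = 0.99), and Mybph (r = 0.988), the highest of 10239 other genes. Spred3 read 2.10 and 3.10 on the non-ventilated arrays, 7.42, 3.75 and 3.54 on the prone and 7.60, 3.58 and 6.17 on the supine arrays. The same 3 arrays carry all of these coefficients, which were selected as the highest of many and are a description over 8 points. Spred3, Cyp7b1 and Mybph met the filter only through arrays on which Gch1 was high. On their remaining arrays they lay below log2 5, where a value cannot be separated from background. For Ass1 the closest were Ndufv1 (0.988), a respiratory complex I subunit, Atp5f1d (0.987), an ATP synthase subunit, and Micos13 (0.987), a protein of mitochondrial cristae, each lowest on supine replicate 3 as Ass1 was. For Arg1 they were Mrpl33 (0.979), a mitochondrial ribosomal protein, Zfp830 (0.978) and Slirp (0.977), an RNA-binding protein of mitochondria. Mrpl33 ranged only from 11.09 to 11.79 over the arrays, while Arg1 ranged from 5.22 to 8.41. Supine replicate 3, the lowest array for Ass1 and its closest genes, had the wide beta-actin gap. The Ass1 and Arg1 coefficients were likewise selected as the highest of many and only describe 8 points.

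Polyamine synthesis begins with Odc1 (1370163_at), the member with the smallest p. Its values were 11.84 and 11.71 on the non-ventilated arrays, 13.48, 12.69 and 11.77 on the prone and 13.27, 12.78 and 12.99 on the supine arrays. Each supine array was above both non-ventilated arrays, and so were 2 of the 3 prone arrays, while prone replicate 3 lay between the non-ventilated values. Group means were 11.78 ± 0.10 (n = 2), 12.65 ± 0.86 (n = 3) and 13.01 ± 0.25 (n = 3). Supine lungs stood 1.24 ± 0.49 log2 units (2.36-fold) above non-ventilated lungs, with an unadjusted p of 0.0366 and an adjusted p of 0.301 by limma, and prone lungs 0.87 ± 0.49 (adjusted p = 0.402). Over all ventilated lungs the difference was 1.05 ± 0.44, 2.07-fold (adjusted p = 0.25; 95% interval 0.04 to 2.07). Leaving out prone replicate 1 gave a prone difference of 0.45, and leaving out prone replicate 3 gave 1.31.

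The promoter of Odc1 is printed for its contrast with that of Ass1; it is chr6:46058415-46058714 on the + strand:
Odc1: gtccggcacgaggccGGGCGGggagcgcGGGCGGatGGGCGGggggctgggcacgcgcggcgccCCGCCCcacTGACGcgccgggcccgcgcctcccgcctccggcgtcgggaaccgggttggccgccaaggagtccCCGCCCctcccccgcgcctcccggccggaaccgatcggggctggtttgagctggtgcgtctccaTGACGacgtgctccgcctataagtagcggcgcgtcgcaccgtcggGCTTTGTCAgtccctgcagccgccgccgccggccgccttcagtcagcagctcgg
It had a GC content of 77.3% and matched 5 GC boxes, TGACG at -177 and -49 and the core of the antioxidant response element (TGACNNNGC, 12.1% of all promoters) on the opposite strand at -4.

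Amd1 (1367933_at), which supplies the aminopropyl donor, read 9.97 and 10.34 on the non-ventilated arrays, 10.74, 9.84 and 8.92 on the prone and 10.88, 10.56 and 9.45 on the supine arrays. Both ventilated groups spread to either side of the non-ventilated values. The prone difference was -0.32 ± 0.61 (adjusted p = 0.823) and the supine difference 0.15 ± 0.61 (adjusted p = 0.916), with intervals from -1.75 to 1.11 and from -1.28 to 1.58, each wide enough to hold a doubling in either direction. With the replicate number as a block the prone difference turned to 0.12.

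Polyamine breakdown was read by Sat1 (1371774_at), a gene known to respond to stress and to polyamines themselves. The non-ventilated arrays gave 12.29 and 12.18, the prone arrays 13.20, 12.89 and 12.92, and the supine arrays 13.09, 12.41 and 13.87. All 6 ventilated arrays were higher than both non-ventilated arrays, supine replicate 2 by the least and supine replicate 3 by the most. Prone lungs averaged 13.01 ± 0.17 (n = 3) against 12.24 ± 0.08 (n = 2), a difference of 0.77 ± 0.43 log2 units or 1.71-fold (adjusted p = 0.397). Supine lungs averaged 13.12 ± 0.73 (n = 3), 0.89 ± 0.43 or 1.85-fold higher (adjusted p = 0.369). Among the prone arrays Sat1 had the tightest spread of the members, and none of the alternatives turned the sign of its difference from non-ventilated lung. Its supine difference was 0.52 without supine replicate 3, the array with the wide beta-actin gap.

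The sequence of Sat1 is shown because it was, beside Gch1, the member higher on all 6 ventilated arrays; it is chrX:44007839-44008138 on the + strand:
Sat1: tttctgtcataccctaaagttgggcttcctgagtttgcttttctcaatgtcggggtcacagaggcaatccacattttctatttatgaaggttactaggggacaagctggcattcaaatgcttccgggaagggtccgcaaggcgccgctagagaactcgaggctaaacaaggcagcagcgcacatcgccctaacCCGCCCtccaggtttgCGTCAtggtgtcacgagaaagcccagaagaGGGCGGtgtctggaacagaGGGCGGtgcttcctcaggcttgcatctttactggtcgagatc
Matches were 3 GC boxes (at -57, -11 and 9) and TGACG on the opposite strand at -41. RefSeq sequences were found for 6 of the 9 genes, and those of Amd1 and Oaz1, not printed, held a TATA box at -29 and -28. Of the motifs, TGACG was matched in 5 of these 6 (Odc1, Sat1, Amd1, Oaz1 and Gch1, not Ass1), against 21.2% of all promoters. The GC box was matched in the same 5, against 33.1% of all. A match is a string of letters and shows no binding.

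Oaz1 (1372241_at), the antizyme, varied least between the groups. It read 13.42 and 13.52 on the non-ventilated arrays, 13.80, 13.47 and 13.31 on the prone and 13.78, 13.42 and 12.65 on the supine arrays. Apart from supine replicate 3 all ventilated arrays were within 0.5 log2 units of the non-ventilated values. The prone difference was 0.05 ± 0.38 (adjusted p = 0.958) and the supine difference -0.19 ± 0.38 (adjusted p = 0.829), with intervals from -0.84 to 0.95 and from -1.09 to 0.71. The sign of the supine difference rested on supine replicate 3 and was positive (0.13) without it.

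**Figure D2:**
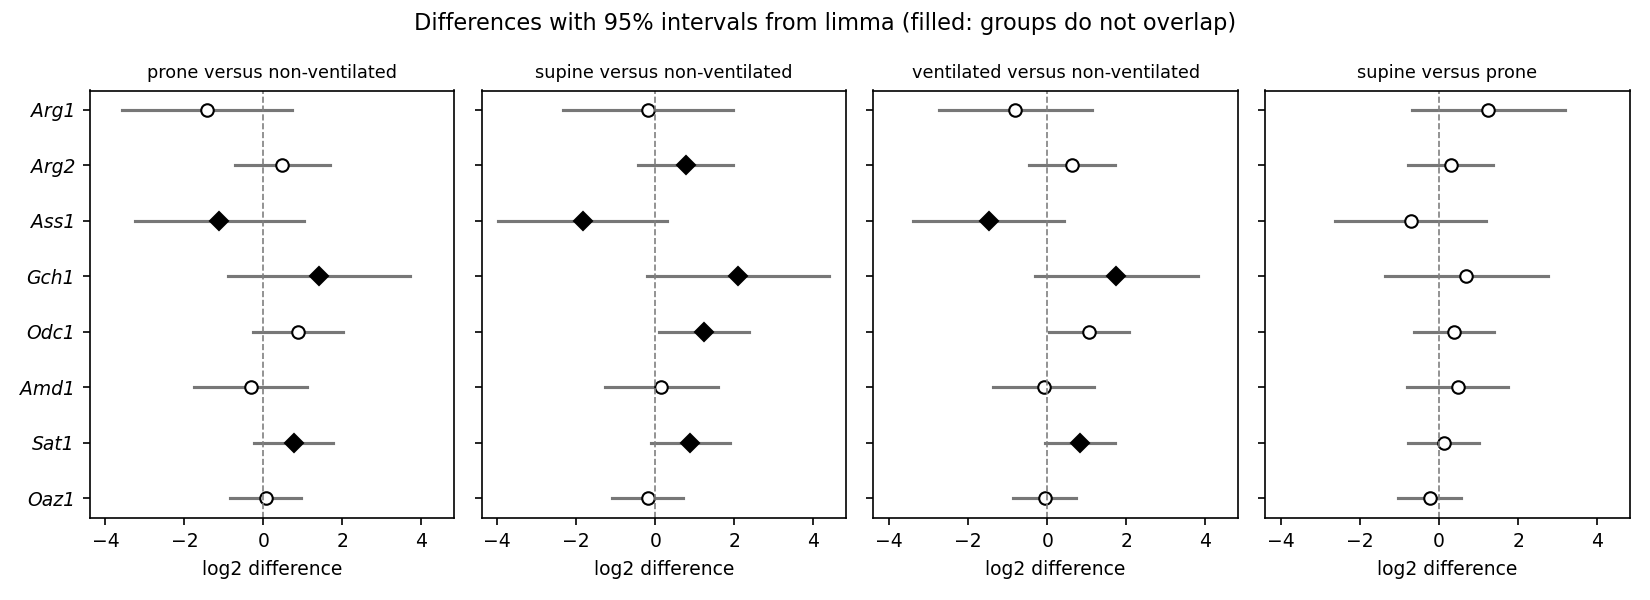
Log2 differences of the 8 member probe sets (points) with 95% intervals (lines) for each of 4 comparisons (panels); filled diamonds mark members whose groups do not overlap. The intervals of Odc1 lie just above 0 in supine and all ventilated lungs against non-ventilated lungs, and all other intervals include 0.

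Body position was compared directly. In supine against prone lungs 6 of 8 members were higher and 2 lower, with adjusted p from 0.942 to 0.978 (limma) and groups that overlapped for each. Arg1 differed by the most (1.24 ± 0.83), followed by Ass1 (-0.72 ± 0.82) and Gch1 (0.69 ± 0.89). The intervals of these 3 reach -0.69 to 3.18, -2.64 to 1.19 and -1.38 to 2.75. They include differences of several-fold, which 3 arrays in each position therefore do not exclude for these members. Without supine replicate 3 the Ass1 difference was 0.16, of the opposite sign. Leaving out 1 array at a time, the Arg1 difference ranged from 0.70 (without supine replicate 1) to 2.00 (without prone replicate 1), and the Gch1 difference from 0.13 to 1.57 without the same arrays.

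Within same-numbered pairs, supine minus prone was above 0 in all 3 pairs for 3 of 8 members (Arg1, Amd1 and Gch1), against 19.7% of all tested probe sets, and below 0 in all 3 for 1 member (Oaz1), against 12.2%. The pairs gave 0.82, 0.61 and 2.30 for Arg1 and 0.15, 0.72 and 0.53 for Amd1. For Oaz1 the pairs gave -0.0172, -0.05 and -0.66, the last of them with supine replicate 3. They gave 0.03, 0.01 and 2.02 for Gch1, so nearly all of its mean difference came from pair 3. With the replicate number as a block, Arg1 had an adjusted p of 0.697 and Gch1 of 0.806 (limma).

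The members varied more between arrays of 1 group than between the positions, and in a common order. Prone replicate 1 had the highest value of the 3 prone arrays for 8 of 8 members, an order that 43.8% of all tested probe sets show. Supine replicate 1 was highest of the supine arrays for 7 of 8, Sat1 being the exception, against 35.4% of all. Both held for 7 of 8 members, against 27.7% of all. Arg2 is in all 3 of these counts, although it met the filter only through prone replicates 1 and 2 and supine replicate 1. Its order is therefore not independent of the filter. Supine replicate 3 was lowest of its group for 3 of 8 members (Ass1, Amd1 and Oaz1), against 35.9% of all, and highest for Sat1. Members and arrays were few and the 8 genes share the same arrays, so these counts describe the libraries.

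**Figure D3:**
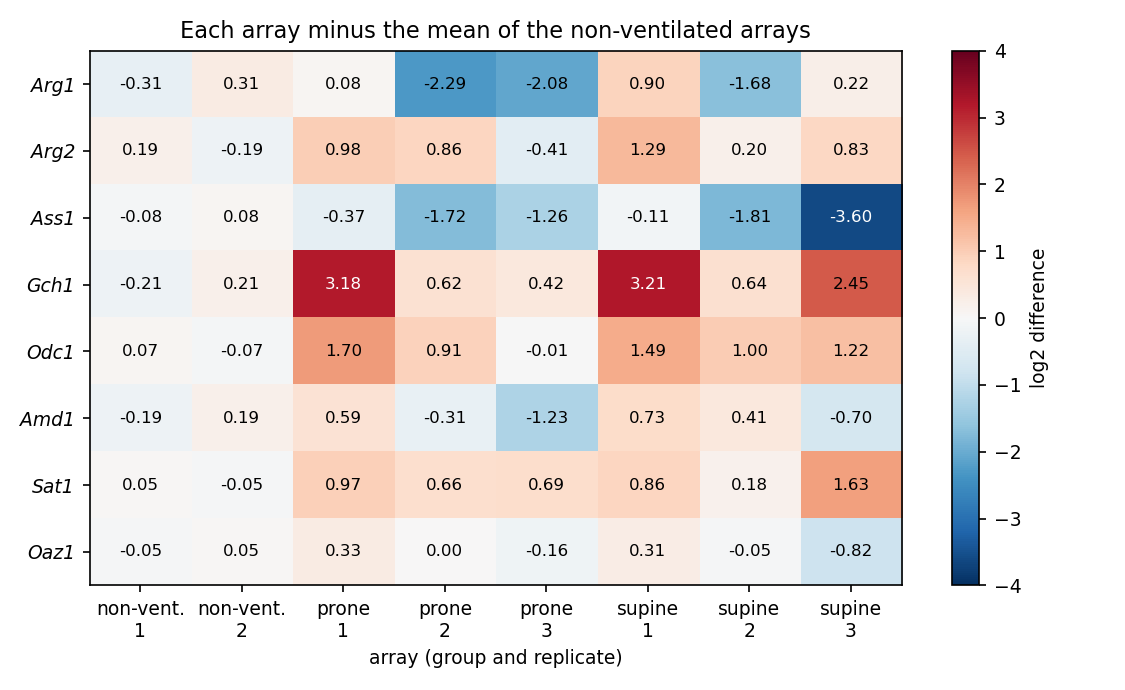
Log2 value of each array minus the mean of the non-ventilated arrays, with arrays in columns, members in rows and the difference printed in each cell and shown by colour. Gch1 stands at 3.18 and 3.21 on the first prone and supine arrays against 0.42 to 0.64 on prone replicates 2 and 3 and supine replicate 2, and Ass1 reaches -3.60 on supine replicate 3.

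Another 49 genes of the same pathways were listed, 12 of the arginine branch, 19 of the nitric oxide branch and 18 of the polyamine branch, and 35 had a tested probe set; where a gene had several, the brightest stood for it. None passed over all probe sets in any of the 4 comparisons (limma). At an unadjusted p under 0.05 there were 5 of 35 in all ventilated against non-ventilated lungs (19.2% of all tested), 3 of 35 in prone (17.7% of all), 5 of 35 in supine (15.2%) and 1 of 35 between the positions (4.09%). In all ventilated lungs the list had 18 genes higher and 17 lower with a median of 0.003, against a median of -0.10 over all tested probe sets.

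In the arginine branch 8 of 9 tested genes were higher in ventilated lung (median 0.35), as were 44% of all tested probe sets. Among these 8, Ckb (0.03) and Gatm (0.003) hardly differed, and only 1, Slc7a1, was higher on every ventilated array. Slc7a1, the main importer of cationic amino acids, read 8.25 and 8.27 on the non-ventilated arrays, 10.93, 10.68 and 9.82 on the prone and 10.38, 9.20 and 12.19 on the supine arrays. All 6 ventilated arrays were higher, supine replicate 3 by the most and supine replicate 2 by the least. The difference over all ventilated lungs was 2.28 ± 0.71, a 4.84-fold level (adjusted p = 0.167), and the supine difference of 2.33 was 1.53 without supine replicate 3 and 3.02 without supine replicate 2. Slc3a2, the heavy chain of several amino acid transporters, differed by 0.39 ± 0.29 (adjusted p = 0.484). Prodh, which breaks down proline, had the smallest p between the positions, at 1.48 ± 0.52 higher in supine than prone lung (adjusted p = 0.942).

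In the nitric oxide branch 8 of 11 tested genes were lower in ventilated lung (median -0.66), as were 56% of all tested probe sets. Nos3 read 6.72 and 7.08 on the non-ventilated arrays, 5.76, 6.01 and 5.88 on the prone and 5.32, 5.74 and 5.55 on the supine arrays. Every ventilated array was below both non-ventilated arrays and the 6 values spread over less than 1 log2 unit. The difference was -1.19 ± 0.25 (adjusted p = 0.104), the smallest adjusted p of the pathway genes in any of the 4 comparisons. Endothelial cells are its main source, and the part of the endothelial sums given above in the Nos3 values was not tested. Gchfr encodes the regulatory protein through which tetrahydrobiopterin inhibits GTP cyclohydrolase; it read 6.27 and 6.78 on the non-ventilated arrays, 3.23, 6.16 and 4.52 on the prone and 5.81, 4.19 and 4.07 on the supine arrays. All 6 ventilated arrays were lower, by -1.86 ± 0.78 on average (adjusted p = 0.253), so the inhibitor and its enzyme Gch1 stood on opposite sides of the non-ventilated lungs. The Gchfr values 3.23, 4.52, 4.19 and 4.07 are below log2 5 and cannot be separated from background, so the size of its difference is uncertain. The array with the highest Gch1 value in the prone group had the lowest Gchfr value, while in the supine group it had the highest. Pts, the next enzyme of cofactor synthesis, differed by -1.01 ± 0.51 between supine and prone lung (adjusted p = 0.942), and by -0.39 without supine replicate 3. Nostrin, which binds the endothelial synthase, stood at 0.69 ± 0.47 in the same comparison, or 0.30 without prone replicate 2 and 1.09 without supine replicate 3.

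The polyamine branch was split, with 7 of 15 tested genes higher and 8 lower in ventilated lung (median -0.04). Sat2, a relative of Sat1, read 8.99 and 9.12 on the non-ventilated arrays, 7.03, 7.79 and 8.12 on the prone and 7.38, 7.38 and 6.56 on the supine arrays. All 6 ventilated arrays were lower, by -1.68 ± 0.38 (adjusted p = 0.107), the opposite side from Sat1. Azin1, the antizyme inhibitor that frees ornithine decarboxylase, read 11.50 and 11.42 on the non-ventilated arrays and between 9.90 and 11.17 on the 6 ventilated ones. Its supine difference was -0.96 ± 0.40 (adjusted p = 0.321), and -0.69 with the mean of the gene's 2 probe sets. Mat2a, which makes the S-adenosylmethionine that Amd1 uses, was 0.85 ± 0.33 higher (adjusted p = 0.224), with prone replicate 2 inside the non-ventilated range. Srm, spermidine synthase, read 8.77 and 8.75 on the non-ventilated arrays, 10.96, 8.75 and 7.49 on the prone and 11.75, 9.53 and 10.05 on the supine arrays. It was highest on the first array of each ventilated group, the order that 7 of the 8 members show. Its difference between supine and prone lung was 1.38 ± 0.91 (adjusted p = 0.942), and ranged from 0.59 (without prone replicate 3) to 2.32 (without prone replicate 1) leaving out 1 array. Paox, a polyamine oxidase, stood at -0.72 ± 0.49 in that comparison, and ranged from -1.13 (without supine replicate 1) to -0.14 (without supine replicate 3) leaving out 1 array.

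**Figure D4:**
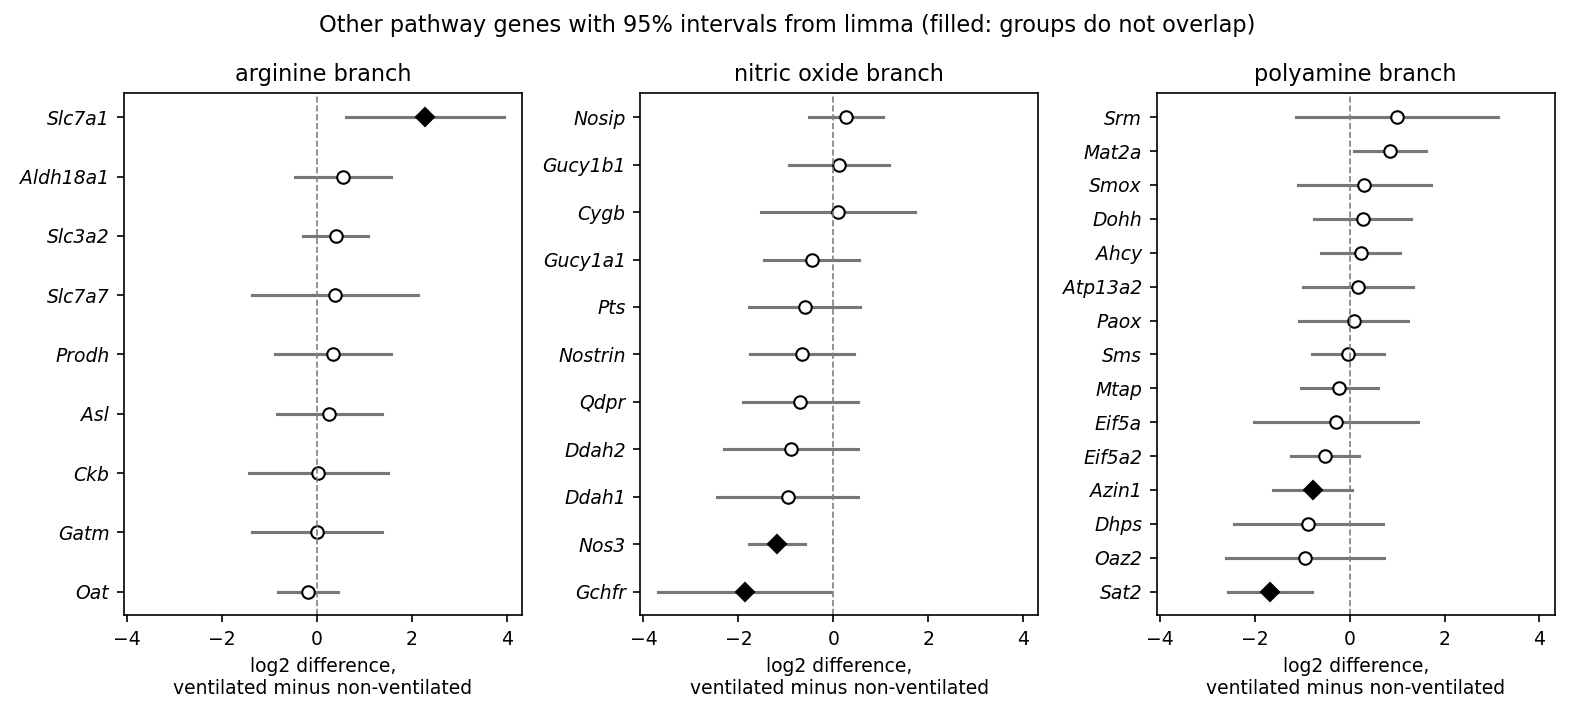
Log2 differences between all ventilated and non-ventilated lungs (x axis) with 95% intervals for the 35 tested genes of the arginine, nitric oxide and polyamine branches (panels); filled diamonds mark genes whose groups do not overlap. Slc7a1 is the 1 gene of 35 higher on all ventilated arrays, against 12.9% of all tested probe sets, and Nos3, Gchfr, Sat2 and Azin1 are the 4 lower on all of them, against 16.7%.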

How the data were processed

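Lung RNA (300 ng per sample) was labelled with biotin and hybridised to 1-colour Affymetrix rat arrays. The deposited values are log2 GCRMA summaries (background correction, quantile normalization and probe set summary), per the submitters' processing notes, which also name Partek 6.5; no other step is named there. Without the 28 control probe sets, 20214 remained; the filter left 16896 for testing and removed 3318. Probe sets were named through the platform annotation held by GEO, and promoters are RefSeq's (GRCr8). The test was limma 3.58.1 (R 4.3.3) on the 3 group means, with the 8 arrays sharing 1 spread (5 residual and 2.51 prior degrees of freedom), two-sided, and Benjamini-Hochberg adjustment over all tested probe sets in each comparison and a threshold of 0.05. The number of arrays limits the precision. Each p-value sets a group difference against the spread between arrays of the same group. Errors are standard errors of the model unless SD is stated. The fit was also run on simulated data with independent noise, a reduced spread and no shared array effects. That run does not measure how the fit behaves on these arrays.

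Members and gene lists were chosen with earlier results of these data known. Named pathway genes are those past the threshold and the 3 with the smallest p per direction in each comparison; likeness was taken for the 3 members with the largest SD over the arrays. Replicate numbers come from the titles, which do not say that they pair the samples. Deviations from group means correlated at 0.109 to 0.721 in 7 same-numbered pairs and at -0.591 to 0.404 in 14 others. These ranges overlap, and prone replicate 3 went more with supine replicate 2 (0.404) than with supine replicate 3 (0.196). The 2 non-ventilated arrays mirror each other by construction (0.213 and -0.213 with prone replicate 1). Pairing by number is therefore not established. Alternatives were the replicate block, centred arrays, other filters, other fits and leaving out each array; leaving out both first ventilated arrays was added after seeing the data.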

Additional observations from a re-analysis of the deposited data

How the results depend on the processing

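No member passed the threshold under any alternative, and 848 of 871 values of single genes under alternatives kept their sign and side of the threshold. The number of all probe sets past the threshold was unstable. In prone against non-ventilated lung, where it was 9, it was 0 with a filter at log2 7, 0 with an intensity trend, 0 with the replicate block, 5 with the mean of a gene's probe sets, 35 with no filter, 119 with only the compared groups, 728 without both first ventilated arrays (an alternative chosen after seeing the data) and 0 to 115 without each array in turn. In supine against non-ventilated lung, also 9, it was 0 with the filter at log2 7, the intensity trend, the replicate block, only the compared groups and without both first ventilated arrays, 4 with gene means, 18 with no filter and 0 to 153 without each array. For all ventilated lungs, 24 became 5, 11, 0, 40, 118 and 413 with the filter at log2 7, the intensity trend, the replicate block, gene means, no filter and without both first ventilated arrays, and 0 to 381 without each array. Between the positions, 0 became 0 to 3 without each array. The replicate block changed no other call. The causes were not tested.

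With the replicate block Amd1 stood at 0.12 in prone and 0.35 in all ventilated lungs, and Oaz1 at 0.0251 in supine and 0.15 in all ventilated lungs. Centred arrays, which move the median over all probe sets by about its own value (-0.12 in prone, -0.07 in supine and -0.10 in all ventilated lungs), gave 0.0155 for Oaz1 in all ventilated lungs. Without both first ventilated arrays Amd1 was -0.15 in supine and Oaz1 -0.0815 in prone lungs. Without each array in turn, against non-ventilated lung, Amd1 ranged from -0.77 to 0.14 in prone, -0.15 to 0.57 in supine and -0.31 to 0.14 in all ventilated lungs, Arg1 from -0.73 to 0.56 in supine, and Oaz1 from -0.0815 to 0.16 in prone, -0.44 to 0.13 in supine and -0.19 to 0.0919 in all ventilated lungs. Between the positions Arg2 ranged from -0.15 to 0.58, Ass1 from -1.59 to 0.16, Oaz1 from -0.49 to 0.0751, Odc1 from -0.0712 to 0.79 and Sat1 from -0.25 to 0.47. At the filter of log2 7 Arg2, Nos3, Gchfr and Prodh were not tested.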
